A study of Mus musculus with 77 samples.

Results

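The 10 genes of extracellular ATP breakdown and adenosine signalling listed here were followed through all 5 count tables of the series: Entpd1, Entpd2, Nt5e, Adora1, Adora2a, Adora2b, Adora3, Ada, Adk and Slc29a1. They were chosen by name as genes of this pathway, with earlier results of these data known. All 10 were found among the 52636 genes of each table. The study measured RNA of mouse cerebral white matter in 77 libraries, each labelled with a cell type and with control or stroke. There were 5 control and 7 stroke libraries labelled EC, 7 and 8 labelled pericyte, 6 and 6 labelled OPC, and 6 and 6 labelled astrocyte. For microglia there were 8 libraries of P2 control, 9 of P2 stroke and 9 of stroke at P4. The labels expand neither EC nor OPC and do not explain P2 and P4. The sources used here do not give strain, genotype, age, stroke model, time after stroke or how cells were isolated.

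Cells under stress release ATP, which acts on P2X and P2Y receptors until enzymes on the cell surface break it down. The ectonucleotidases Entpd1 (CD39) and Entpd2 remove its outer phosphates, and Nt5e (CD73) turns the remaining AMP into adenosine. Adenosine then acts on G protein coupled receptors. Adora1 and Adora3 couple to inhibitory G proteins, whereas Adora2a and Adora2b stimulate adenylyl cyclase. The signal ends when the equilibrative transporter Slc29a1 (ENT1) carries adenosine into cells, where adenosine kinase (Adk) phosphorylates it, or when adenosine deaminase (Ada) converts it to inosine. In brain, Entpd1 is known as a microglial and vascular enzyme, Adk as largely astrocytic in the adult, and Adora2a as a receptor of striatal neurons that signal through the D2 dopamine receptor.

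The sequence just upstream of 3 members is shown because these genes carried the clearest patterns below: Adora2b, which moved in opposite directions in pericyte and OPC libraries, and Entpd1 and Adora3, whose level per exon length was highest in microglia. Each is the 250 bases before a RefSeq start in GRCm38.p6, on the plus strand, 5′ to 3′. The Adora2b window is chr11:62248734-62248983, that of Entpd1 is chr19:40659520-40659769, before the second of its RefSeq starts, and that of Adora3 is chr3:105904171-105904420. Capitals mark, in Adora2b, the letters GCGTG on the opposite strand (a core motif bound by hypoxia-inducible factors) and, in Entpd1 and Adora3, the letters GAGGAA on either strand (a core motif bound by PU.1, a factor of myeloid cells).
Adora2b: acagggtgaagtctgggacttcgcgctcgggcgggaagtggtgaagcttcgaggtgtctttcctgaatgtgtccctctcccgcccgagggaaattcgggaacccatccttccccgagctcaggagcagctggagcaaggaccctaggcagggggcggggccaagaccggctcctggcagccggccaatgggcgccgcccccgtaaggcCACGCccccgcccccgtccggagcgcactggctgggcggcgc
Entpd1: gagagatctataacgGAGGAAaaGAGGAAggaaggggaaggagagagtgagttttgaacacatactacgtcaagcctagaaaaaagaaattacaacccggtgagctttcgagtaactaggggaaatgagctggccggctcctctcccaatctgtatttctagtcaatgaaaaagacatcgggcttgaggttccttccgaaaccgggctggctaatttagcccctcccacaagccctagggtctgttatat
Adora3: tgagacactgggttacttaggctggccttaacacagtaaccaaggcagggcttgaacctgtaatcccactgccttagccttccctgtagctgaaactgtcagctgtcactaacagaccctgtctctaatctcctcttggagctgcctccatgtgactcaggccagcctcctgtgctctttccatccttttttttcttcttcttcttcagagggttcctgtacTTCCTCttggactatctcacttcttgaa
Both strands were searched. ACGTG or GCGTG was present in 38.6% and GAGGAA in 23.3% of 32817 RefSeq windows of this length, so that a match is common and is only a description. The Entpd1 window held GAGGAA at 235 and at 227 bases before the start and the Adora3 window held it at 28 bases before the start. The window before the first Entpd1 start, not shown, held no GAGGAA and 1 HIF core. The HIF core of Adora2b lay 42 bases before the start. Motif and pattern did not go together in the members not shown. Ada, whose mean was also highest in microglia, held neither motif in its window. Slc29a1, highest in pericytes, held GAGGAA before its first and second listed starts. HIF cores also lay in windows of Entpd2, Nt5e, Adora1, Adk and Slc29a1.

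Depth and purity differed between tables. Library totals were 43367636 to 142944063 counts in the 4 other tables and 5530125 to 11770194 in microglia, where 5876 to 14243 genes had at least 10 counts. EC libraries numbered up to 6 were deeper than those above 6. Marker genes of the labelled type were detected in every table, but other types were present too. In EC libraries 12 endothelial markers summed to 2398 to 5731 CPM (the usual count unit relative to library size, here with totals scaled by TMM within a table), and 9 neuron markers to 4747 to 9521 CPM, the larger sum in every EC library but stroke 14. The 8 mature oligodendrocyte markers summed to 8523 to 19890 CPM in EC libraries. In OPC libraries they summed to 56204 to 109865 CPM, beside 10287 to 13508 CPM for the 9 OPC markers. Microglia markers were higher after stroke in the other 4 tables. They summed to 158 to 256 CPM in EC control and 305 to 577 CPM in EC stroke libraries. In pericytes the sums were 418 to 3271 and 3653 to 8197 CPM, in OPC 109 to 199 and 799 to 1340 CPM, and in astrocytes 698 to 941 and 2188 to 4028 CPM. For these bulk samples, fewer cells of a type and less RNA per cell cannot be told apart. The labels do not tie libraries to animals. The p-values therefore reflect how far libraries of a group spread, part of which may be technical.

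**Figure D1:**
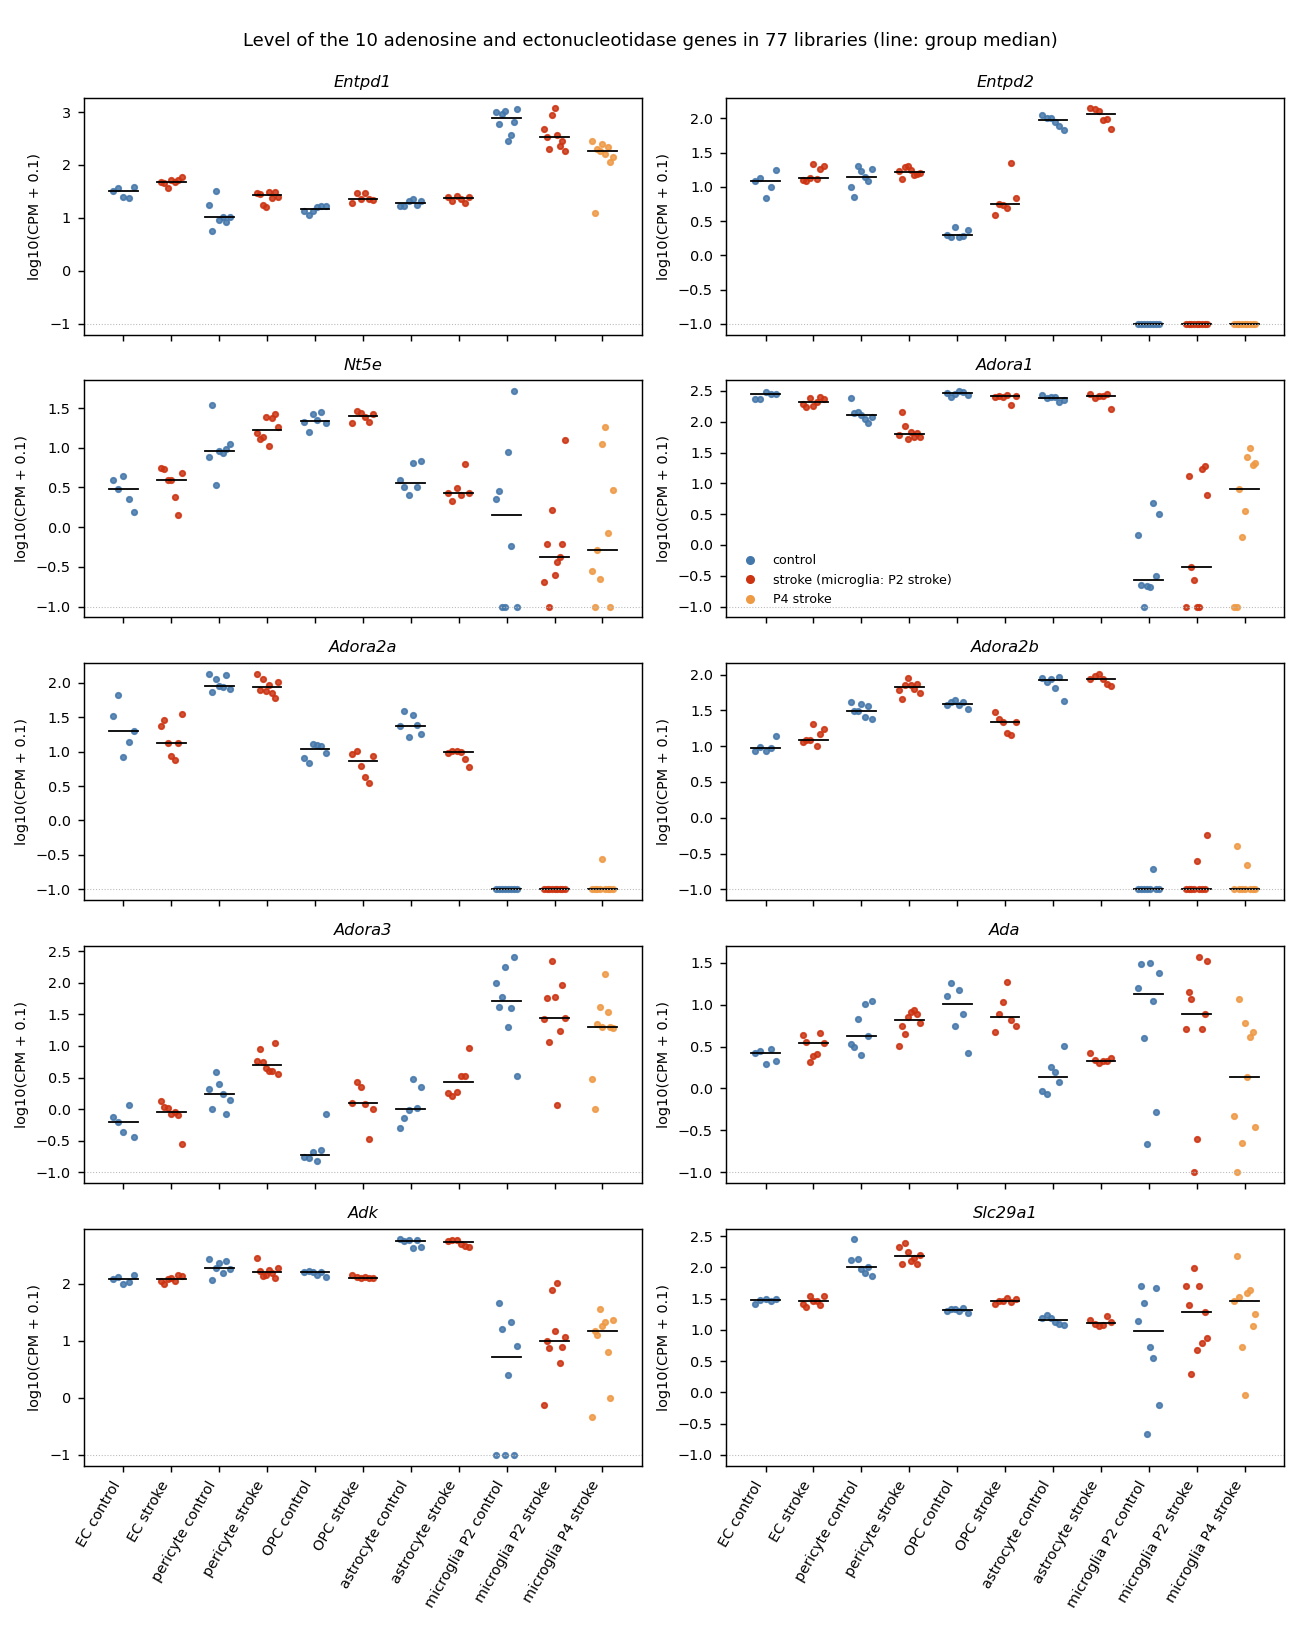
Level of each gene as log10(CPM + 0.1), 1 point per library and a line at the group median, for the 11 groups; the dotted line marks 0 counts. Entpd1 and Adora3 stood highest in microglia, whereas Entpd2 had 0 counts in all 26 microglia libraries.

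In control libraries the 10 genes divided the cell types between them. Levels are given here as CPM per kilobase of annotated exon (GENCODE vM21, GRCm38), so that genes of different length can be set side by side. The differences come from edgeR's quasi-likelihood test in a joint fit of 68 libraries, with adjustment over all genes. Levels were scaled within each table and the differences over all tables together, so the 2 can disagree for close neighbours. Cell type and count table cannot be told apart. The joint fit shares an estimate of spread for each gene over all tables. Microglia libraries varied widely, so p-values of differences from microglia may be too small. With library totals alone, the order of OPC and pericytes turned for Entpd1 and Adk, and that of EC and astrocytes for Adora1 and Adora2a. The differences among the other 4 cell types were also fitted without microglia (an alternative chosen after seeing the data). Over all genes, the joint fit called 22.0% for EC against pericytes, 21.8% for EC against OPC, 10.3% for EC against astrocytes, 33.4% for pericytes against OPC, 13.4% for pericytes against astrocytes and 15.9% for OPC against astrocytes. Against microglia it called 67.8% for EC, 67.0% for pericytes, 67.1% for OPC and 67.8% for astrocytes. Without microglia the first 6 shares were 58.3%, 51.7%, 40.7%, 67.7%, 48.2% and 47.1%, so a call between cell types is common for any gene.

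Of the ectoenzymes, Entpd1 (ENSMUSG00000048120, chromosome 19:40612366-40741602) was led by microglia, at 134 ± 57.5 (SD, n = 8), against 5.53 ± 1.16 in EC (n = 5), 3.45 ± 0.467 in astrocytes (n = 6), 2.62 ± 0.402 in OPC (n = 6) and 2.38 ± 1.64 in pericytes (n = 7). The lowest microglia control library, 285 CPM, lay far above the highest of any other control group, 37.8 CPM in EC. The step from microglia to EC was 4.52 ± 0.39 on the log2 scale (SE, adjusted p = 3.14e-16). EC over astrocytes and astrocytes over OPC were not called in the joint fit (adjusted p = 0.434 and 0.508). Even so, every EC control library lay above every astrocyte control library. Without microglia in the fit these 2 steps were not called either (adjusted p = 0.115 and 0.141). That fit did call OPC over pericytes (log2 0.58 ± 0.22, adjusted p = 0.0164) and EC over OPC (0.85 ± 0.23, adjusted p = 0.00182). Entpd2 (ENSMUSG00000015085, 2:25395874-25401321) was led by astrocytes instead, with microglia last: 43.0 ± 7.95 in astrocytes, 6.54 ± 2.16 in pericytes, 5.64 ± 1.92 in EC and 0.939 ± 0.144 in OPC. Astrocytes exceeded pericytes by 3.17 ± 0.34 (log2, adjusted p = 3.04e-10), while pericytes and EC differed by 0.00 ± 0.33. Entpd2 had 0 counts in all 8 P2 control microglia libraries, so that, with 3 counts over the group as the floor, astrocyte controls were at least 1841-fold higher. Exons of Npdc1 cover 28.8% of those of Entpd2 on the same strand, and Npdc1 itself was called in none of the 4 stroke comparisons in which it was tested (log2 fold changes of -0.13 to -0.05). Nt5e (ENSMUSG00000032420, 9:88327197-88372092) was low throughout, with its highest control level in OPC at 2.59 ± 0.520, then 1.39 ± 1.20 in pericytes, 0.953 ± 2.06 in microglia, 0.493 ± 0.206 in astrocytes and 0.340 ± 0.134 in EC. OPC exceeded pericytes without microglia in the fit (log2 1.32 ± 0.33, adjusted p = 0.000499) but not with them (1.35 ± 0.84, adjusted p = 0.205).

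Among the receptors, Adora1 (ENSMUSG00000042429, 1:134199223-134235431) was the most evenly spread. Its control level was 49.4 ± 3.70 in OPC, 46.0 ± 4.84 in EC, 41.9 ± 3.97 in astrocytes, 24.2 ± 8.03 in pericytes and 0.208 ± 0.302 in microglia. OPC, EC and astrocytes did not differ from their neighbours in either fit, whereas pericytes were below astrocytes without microglia in the fit (log2 1.24 ± 0.18, adjusted p = 6.71e-08; 1.22 ± 0.67, adjusted p = 0.234, with them). Adora2a (ENSMUSG00000020178, 10:75316877-75334784) was highest in pericytes at 32.7 ± 7.88, 1.64 ± 0.41 log2 units above EC (adjusted p = 0.00305). EC at 9.14 ± 7.54 and astrocytes at 8.42 ± 2.92 did not differ, OPC were at 3.33 ± 0.838, and the 8 microglia libraries had 0 counts. Adora2b (ENSMUSG00000018500, 11:62248984-62266453) ran from 41.1 ± 10.4 in astrocytes through 21.1 ± 2.18 in OPC and 17.6 ± 3.67 in pericytes to 5.41 ± 1.20 in EC. All 3 steps were called without microglia in the fit (adjusted p of 3.36e-05, 0.00122 and 3.56e-08), and of them only pericyte over EC with microglia (1.49 ± 0.40, adjusted p = 0.00503). Only 1 of the 8 microglia controls had a count of Adora2b. Adora3 (ENSMUSG00000000562, 3:105870858-105908926) was at 23.5 ± 23.8 in microglia and between 0.0518 and 0.483 in the other 4 control groups. Its microglia level was uneven, from 3.28 to 260 CPM with a median of 50.6 CPM, and so overlapped with the highest pericyte control library at 3.72 CPM. The step from microglia to pericytes was 5.72 ± 0.76 (log2, adjusted p = 1.91e-09).

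The genes that remove adenosine were led by different cells. Adk (ENSMUSG00000039197, 14:21052574-21448569) was highest in astrocytes at 62.4 ± 9.32, with 23.5 ± 6.55 in pericytes, 18.0 ± 1.75 in OPC, 14.1 ± 1.93 in EC and 1.38 ± 1.90 in microglia. The lowest astrocyte library, 427 CPM, exceeded the highest pericyte control library, 272 CPM. The step between the groups was 1.86 ± 0.17 (log2, adjusted p = 2.09e-13) without microglia in the fit and 1.85 ± 0.66 (adjusted p = 0.0501) with them. Slc29a1 (ENSMUSG00000023942, 17:45585200-45599606) was highest in pericytes at 32.1 ± 17.7, 1.91 ± 0.64 log2 units above EC at 7.39 ± 0.479 (adjusted p = 0.0240), and lay between 3.55 and 5.16 in the other 3 controls. Ada (ENSMUSG00000017697, 2:163726584-163750239) reached 7.29 ± 6.42 in microglia, 5.09 ± 2.97 in OPC and 2.88 ± 1.74 in pericytes, and was at 1.20 ± 0.217 in EC and 0.747 ± 0.438 in astrocytes. None of its neighbouring steps was called in the joint fit. Without microglia, OPC over pericytes (adjusted p = 0.00184) and pericytes over EC (adjusted p = 0.0156) were called.

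**Figure D2:**
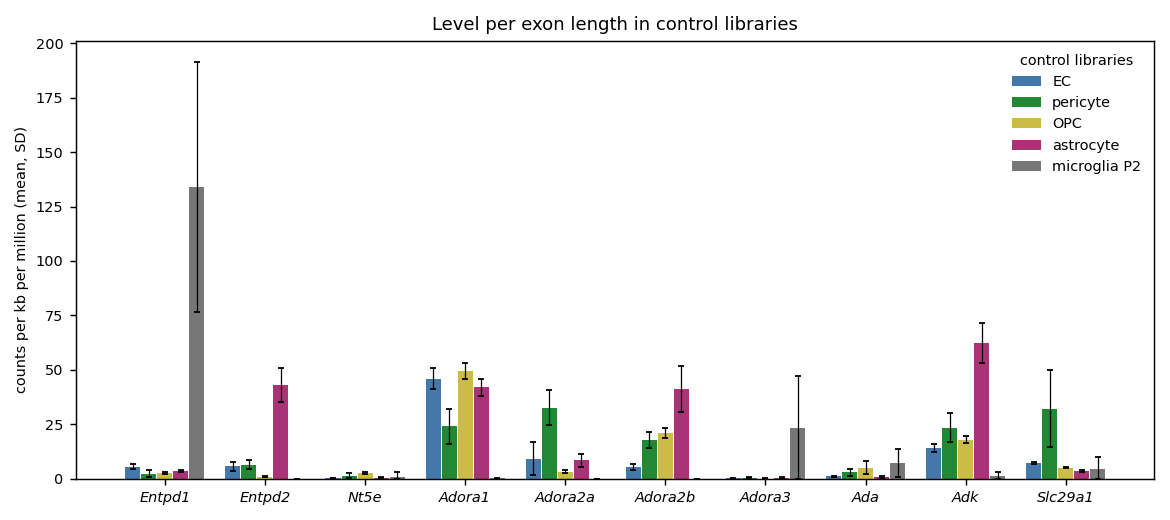
Mean level per exon length in control libraries (CPM per kilobase, bars from 0; error bars are SD, with the lower end stopped at 0) of the 10 genes in the 5 cell types. Entpd1 in microglia at 134 stands above all other bars, and the next highest is Adk in astrocytes at 62.4.

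Stroke was then compared with control within each table (edgeR's quasi-likelihood test, Benjamini-Hochberg adjustment over all genes of the table, called under an adjusted p of 0.05). In OPC libraries 4 members rose and 2 fell, where 20.5% of 18167 genes tested were called (11.7% higher, 8.77% lower). In pericytes 3 rose and 1 fell, where 28.7% of 21694 genes were called (15.9% higher, 12.8% lower). EC libraries gave 1 increase and 0 decreases, with 6.23% of 20995 genes called (3.57% higher, 2.67% lower), and astrocytes 0 increases and 1 decrease, with 10.3% of 18796 genes called (5.63% higher, 4.68% lower). No member had groups apart in EC, where 3.85% of all genes did. At an unadjusted p under 0.05 there were 3 members in EC and 3 in astrocytes, beside 4814 and 4265 of all genes tested. DESeq2 called 2 members in each, beside 2834 of 22708 and 2708 of 23519 genes. The members were chosen with earlier results of these data known. Their counts, which rest on 10 genes in each table, are therefore no test against the background. Median log2 fold changes of the members were 0.40 in EC, 0.29 in pericytes, -0.02 in OPC and 0.10 in astrocytes, against 0.03, -0.08, -0.01 and -0.04 over all genes tested. In microglia none of the 7 members tested was called. Scaling by library totals alone moved the median of all genes to 0.10 in EC, -0.28 in pericytes and 0.11 in OPC, and moved the split of all called genes to 940 higher and 254 lower in EC (749 and 560 with TMM), 2573 and 4198 in pericytes (3440 and 2787) and 3347 and 804 in OPC (2133 and 1593).

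**Figure D3:**
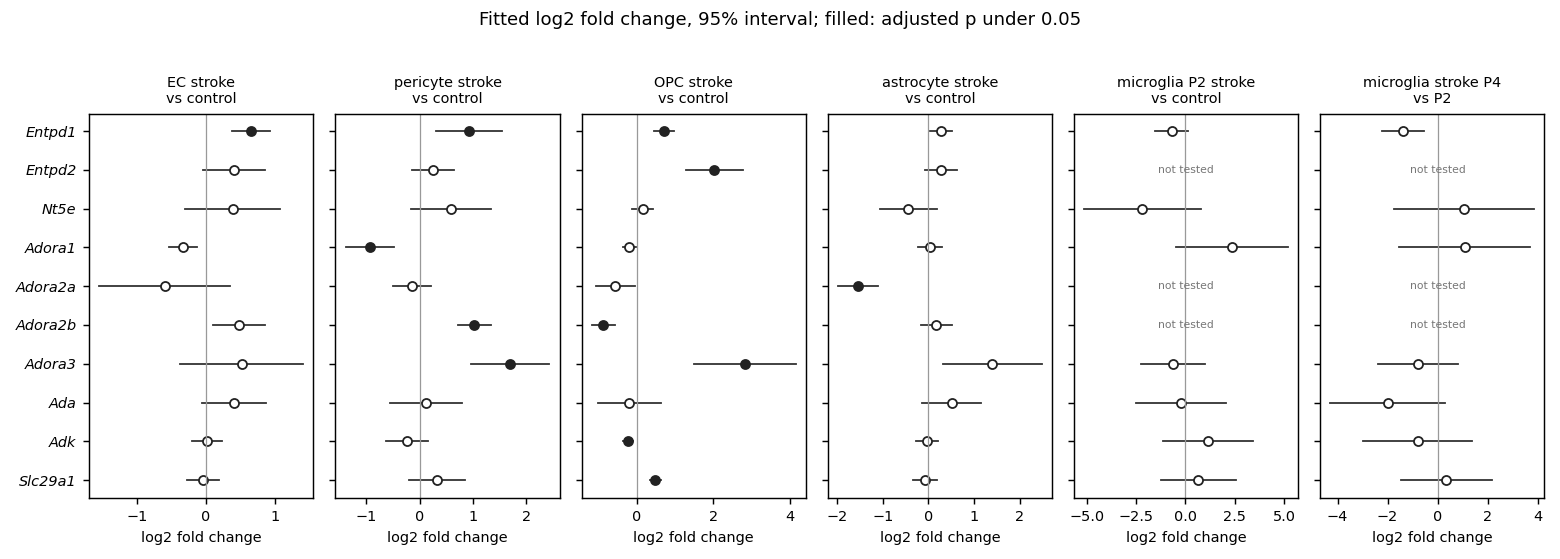
Fitted log2 fold change of each gene with its 95% interval in the 6 comparisons, on a separate axis for each; filled points passed an adjusted p of 0.05. Entpd1 and Adora3 are called higher in pericytes and OPC, and Adora2b is called higher in pericytes and lower in OPC.

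Entpd1 rose in 3 of the 4 non-microglial tables. In EC control libraries it was at 23.8, 24.7, 31.6, 36.4 and 37.8 CPM and in EC stroke libraries at 36.9 to 60.5 CPM (median 47.0). All 7 stroke libraries exceeded the control median, and the groups overlapped only between 36.9 and 37.8 CPM. This gave a log2 fold change of 0.65 ± 0.14 (adjusted p = 0.0211, n = 7 and 5). It was not called without control library 7 or control library 9 (0.58 and 0.57). Within the deep class numbered up to 6 it was 0.34 ± 0.17 (adjusted p = 0.707) and within the class above 6 it was 0.88 ± 0.19 (adjusted p = 0.0727). In pericytes the range was 5.55 to 32.3 CPM in controls (median 10.2) and 16.2 to 31.5 CPM after stroke (median 26.5), with 1 control library, number 8, above all stroke libraries. This gave 0.93 ± 0.31 (adjusted p = 0.0353, n = 8 and 7), a call that was lost in 7 of the 15 fits with 1 library left out (controls 9, 11, 14 and 15 and strokes 1, 10 and 13), with library totals alone (0.76, adjusted p = 0.0751) and with controls 11 and 15 summed (0.88, adjusted p = 0.0702). In OPC the groups were apart, at 11.2 to 16.9 CPM (median 14.7) in controls and 18.8 to 29.7 CPM (median 22.7) after stroke, and the log2 fold change was 0.72 ± 0.13 (adjusted p = 0.00124, n = 6 and 6). Over all genes tested in OPC, 11.1% had groups that did not overlap. Astrocytes went from 16.7 to 23.1 CPM (median 18.9) to 19.0 to 26.2 CPM (median 23.6), a log2 fold change of 0.27 ± 0.12 that was not called (adjusted p = 0.206).

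Since Entpd1 was most abundant in microglia, the microglia markers that moved with it stand beside it. They were called higher in 6 of 12 in EC, 12 of 12 in pericytes, 12 of 12 in OPC and 11 of 12 in astrocytes. Pericyte control 8, the highest control library for Entpd1, also had the highest microglia marker sum of its group (3271 CPM). Endothelial markers moved in EC as well, with 3 of 12 called higher and 0 lower. Their sum was 2398 to 4088 CPM in EC controls and 3415 to 5731 CPM after stroke. In pericytes 2 of them rose and 2 fell, in OPC 3 of 11 tested rose, and in astrocytes 0 were called. The part of either marker list in the increases was not tested.

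Entpd2 rose in OPC and was not called in the other 3 tables where it was tested. OPC controls held 1.74 to 2.48 CPM (median 1.87) and stroke libraries 3.84, 4.88, 5.28, 5.62, 6.84 and 22.6 CPM. The groups did not overlap, and stroke library 8 stood apart at 22.6 CPM. Stroke exceeded control by 2.03 ± 0.38 on the log2 scale (adjusted p = 0.00143, n = 6 and 6), and 1.40 (adjusted p = 3.34e-05) without library 8. Astrocyte markers, of which 7 of 10 were called higher, moved with it: their sum was 546 to 828 CPM in OPC controls and 1390 to 4063 CPM after stroke, with stroke library 8 the highest. Their part in the increase was not tested. In the astrocyte table itself Entpd2 was at 68.5 to 114 CPM in controls (median 94.5) and at 68.9 to 140 CPM after stroke (median 115), a log2 fold change of 0.28 ± 0.18 (adjusted p = 0.388). EC gave 0.41 ± 0.23 (adjusted p = 0.306) and pericytes 0.25 ± 0.20 (adjusted p = 0.360).

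Nt5e was called in no table. Its log2 fold changes were 0.38 ± 0.35 in EC, 0.59 ± 0.38 in pericytes, 0.15 ± 0.14 in OPC and -0.44 ± 0.32 in astrocytes. In pericytes control library 6 held 34.8 CPM, and the other 6 control libraries 3.30 to 11.1 CPM, against 10.3 to 26.2 CPM after stroke. Without that library the log2 fold change was 1.15 (adjusted p = 0.00562).

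Of the receptors, Adora2b changed in opposite directions in the pericyte and OPC tables. In pericytes the controls ran from 23.5 to 41.8 CPM (median 31.3) and the stroke libraries from 46.0 to 90.1 CPM (median 66.0). Every stroke library exceeded every control library, where 5.47% of all genes tested in pericytes had groups that did not overlap. The log2 fold change was 1.03 ± 0.16 (adjusted p = 0.000349, n = 8 and 7), with a range of 0.89 to 1.10 over the fits with 1 library left out. In OPC the controls ran from 32.6 to 44.2 CPM (median 39.3) and the stroke libraries from 14.3 to 29.8 CPM (median 21.9), again without overlap. The fitted log2 difference was -0.88 ± 0.15 (adjusted p = 0.000793, n = 6 and 6), with a range of -1.0 to -0.80. EC controls were at 8.44, 8.51, 9.44, 9.75 and 13.8 CPM and stroke libraries at 10.0 to 20.0 CPM (median 12.1), which gave 0.48 ± 0.19 (adjusted p = 0.148). Astrocytes, with the highest level, gave 0.17 ± 0.17 (adjusted p = 0.613). Adora2b is the low-affinity receptor, which needs more adenosine than the others to be activated. Several marker lists moved in the same libraries. In OPC all 8 mature oligodendrocyte markers fell, from a sum of 96178 to 109865 CPM to 56204 to 77260 CPM, and astrocyte and microglia markers rose as given above. In pericytes 5 of 8 fibroblast markers rose, from a sum of 1807 to 6620 CPM to 4820 to 24651 CPM, as did all 12 microglia markers. Fibroblast markers rose in OPC too, 7 of 8, with sums of 748 to 1327 CPM in controls and 986 to 1328 CPM after stroke. In pericytes 6 of 8 mature oligodendrocyte markers fell as well. Neuron markers fell in both tables, 6 of 9 in OPC and 7 of 9 in pericytes. So did 8 of 10 striatal projection neuron markers in OPC and 9 of 10 in pericytes. Microglia libraries held counts of Adora2b in 5 of 26. The part of these cells in either change was not tested.

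Adora3 rose in pericytes and in OPC, from low levels. Pericyte controls held 0.726 to 3.72 CPM (median 1.65) and stroke libraries 3.5 to 10.9 CPM (median 4.95), with 1 control library, number 8, within the stroke range. On the log2 scale the difference was 1.70 ± 0.37 (adjusted p = 0.00370, n = 8 and 7). OPC controls held 0.0523 to 0.122 CPM in 5 libraries and 0.738 CPM in library 12, against 0.238 to 2.62 CPM after stroke (median 1.14), so the groups overlapped through control 12. The log2 fold change was 2.83 ± 0.68 (adjusted p = 0.00795, n = 6 and 6), and 3.98 without control 12. Astrocytes went from 0.410 to 2.91 CPM (median 0.912) to 1.5 to 9.35 CPM (median 2.54), which gave 1.40 ± 0.55 (adjusted p = 0.141; DESeq2 adjusted p = 0.0457). Without stroke library 12, the one at 9.35 CPM, this was 0.84 (adjusted p = 0.330). EC gave 0.52 ± 0.45 (adjusted p = 0.547). Microglia markers, given above, rose in each of these tables, whereas Adora3 was called in pericytes and OPC only. The part of these markers in the result was not tested. In pericytes the highest control library for Adora3 was again number 8, and in astrocytes the highest stroke library, 12, had the highest microglia marker sum (4028 CPM). Exons of Tmigd3 cover 20.9% of those of Adora3 on the same strand. Tmigd3 rose in pericytes too (log2 2.95 ± 0.50, adjusted p = 0.000617), and reads of the shared exons cannot be told apart here.

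Adora2a fell in astrocytes. Controls held 16.3 to 38.7 CPM (median 23.7) and stroke libraries 5.80 to 10.1 CPM (median 9.61), without overlap, where 7.38% of all genes tested in astrocytes had groups apart. On the log2 scale stroke was lower, at -1.55 ± 0.22 (adjusted p = 0.000484, n = 6 and 6), with a range of -1.63 to -1.36 over the fits with 1 library left out. All 10 markers of striatal projection neurons fell in the same libraries, from a sum of 1028 to 1601 CPM to 482 to 650 CPM, as did 7 of 9 neuron markers. Their part in the decrease was not tested. In pericytes, where Adora2a was most abundant, controls ran from 72.8 to 134 CPM (median 88.2) and stroke libraries from 60.2 to 134 CPM (median 86.1), and the log2 fold change was -0.14 ± 0.18 (adjusted p = 0.595). In those libraries 9 of 10 striatal markers fell. OPC gave -0.56 ± 0.26 (adjusted p = 0.142) and EC -0.60 ± 0.48 (adjusted p = 0.503). EC controls alone ranged from 8.32 to 66.0 CPM.

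Adora1 fell in pericytes. Controls ran from 95.8 to 238 CPM (median 130) and stroke libraries from 51.8 to 142 CPM (median 62.6). Of the 8 stroke libraries 7 were below every control library, and library 3, at 142 CPM, was not. The log2 fold change was -0.94 ± 0.23 (adjusted p = 0.00688, n = 8 and 7). It was -1.15 without stroke library 3 and -0.76 without control library 5, and was called in both cases. Those same libraries had the highest neuron marker sums of their groups, 1899 and 3191 CPM, and 7 of 9 neuron markers fell in pericytes. So did 6 of 8 mature oligodendrocyte markers, from a sum of 15403 to 53906 CPM to 7624 to 34547 CPM. Of the 9 OPC markers 4 fell, 1 (Vcan) rose and 4 were not called. The OPC marker sums overlapped, at 702 to 1210 CPM in controls and 679 to 903 CPM after stroke. The part of these lists in the decrease was not tested. EC controls held 236, 237, 278, 281 and 299 CPM and EC stroke libraries 177 to 248 CPM (median 210), which gave -0.33 ± 0.10 (adjusted p = 0.0704; DESeq2 adjusted p = 0.0329), with 7 of 7 stroke libraries below the control median. In EC, too, 7 of 9 neuron markers fell and 0 rose. Their sum was 6949 to 9521 CPM in EC controls and 4747 to 6199 CPM after stroke, and their part was not tested. OPC gave -0.20 ± 0.09 (adjusted p = 0.121) and astrocytes 0.04 ± 0.13 (adjusted p = 0.911). There, 6 of 9 and 7 of 9 neuron markers fell. Exons of Mybph, on the opposite strand, cover 20.1% of those of Adora1. Mybph had a mean of at most 0.710 CPM in these 4 tables, and was called in OPC only (log2 3.64 ± 0.64, adjusted p = 0.000793).

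**Figure D4:**
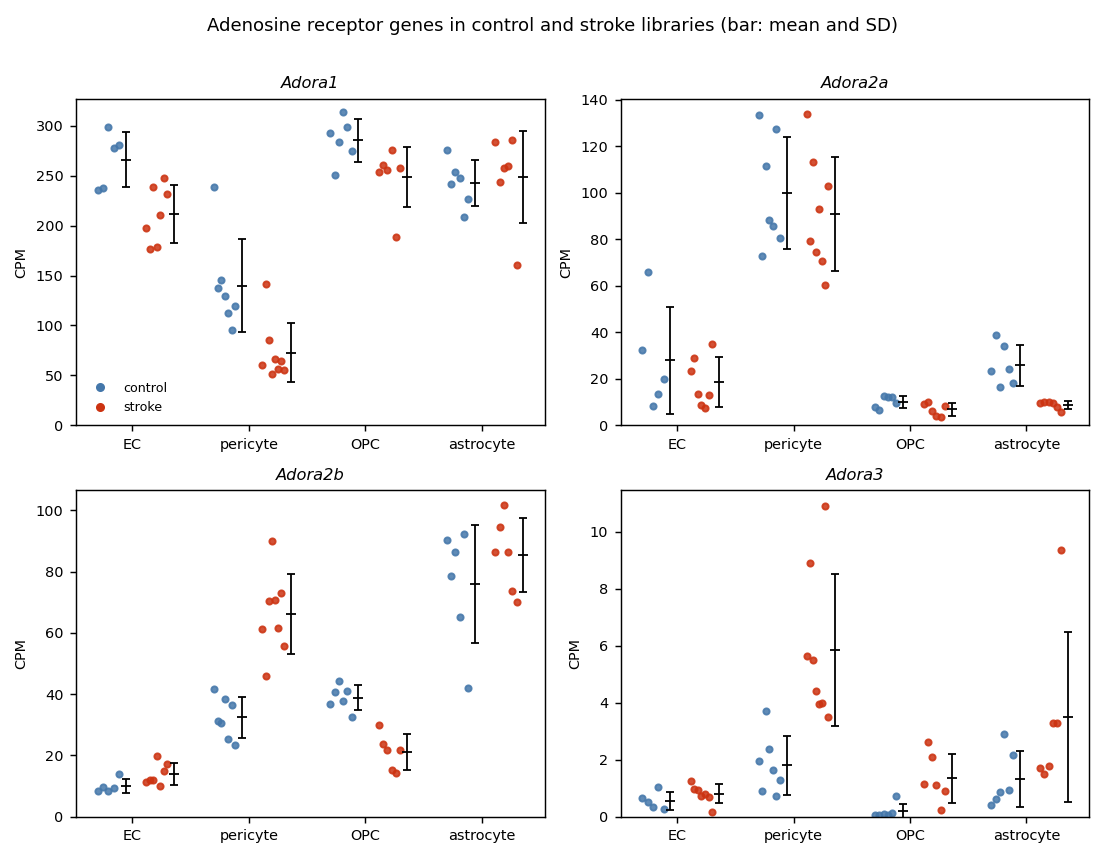
Level in CPM of the 4 adenosine receptor genes in control and stroke libraries of 4 tables, 1 point per library, with the mean and SD beside each group; each axis starts at 0. Adora2b is higher after stroke in all 8 pericyte libraries and lower in all 6 OPC libraries, and Adora2a is lower in all 6 astrocyte stroke libraries.

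Of the genes that remove adenosine, those called were both in OPC. Slc29a1 rose from 18.9 to 22.0 CPM (median 20.8) to 25.5 to 31.8 CPM (median 28.9), without overlap, a log2 fold change of 0.49 ± 0.08 (adjusted p = 0.000288, n = 6 and 6) that was called in every fit with 1 library left out and in the other 4 settings run for OPC. Adk fell from 130 to 168 CPM (median 160) to 126 to 143 CPM (median 129), with overlap, a log2 fold change of -0.23 ± 0.07 (adjusted p = 0.0311). That call was lost in 8 of the 12 fits with 1 library left out (controls 4, 7 and 11 and strokes 2, 3, 5, 8 and 10), without the filter on low counts (adjusted p = 0.0685) and with library totals alone (-0.12, adjusted p = 0.260). In the same OPC libraries the 8 mature oligodendrocyte markers fell. Of other lists, 7 of 8 fibroblast, 7 of 10 astrocyte, 12 of 12 microglia and 3 of 11 tested endothelial markers rose. Their part in both changes was not tested. In pericytes, where Slc29a1 was most abundant, it gave 0.33 ± 0.27 (adjusted p = 0.371). There, control library 6 held 281 CPM, the other 6 controls 74.2 to 138 CPM and the stroke libraries 113 to 245 CPM (median 151). Without control 6 the log2 fold change was 0.64 (adjusted p = 0.0246). In astrocytes, where Adk was most abundant, it went from 427 to 598 CPM (median 571) to 438 to 588 CPM (median 530), a log2 fold change of -0.04 ± 0.12 with a 95% interval of -0.28 to 0.21. Ada was called in no table, with log2 fold changes of 0.41 ± 0.24 in EC, 0.12 ± 0.34 in pericytes, -0.20 ± 0.42 in OPC and 0.51 ± 0.33 in astrocytes.

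**Figure D5:**
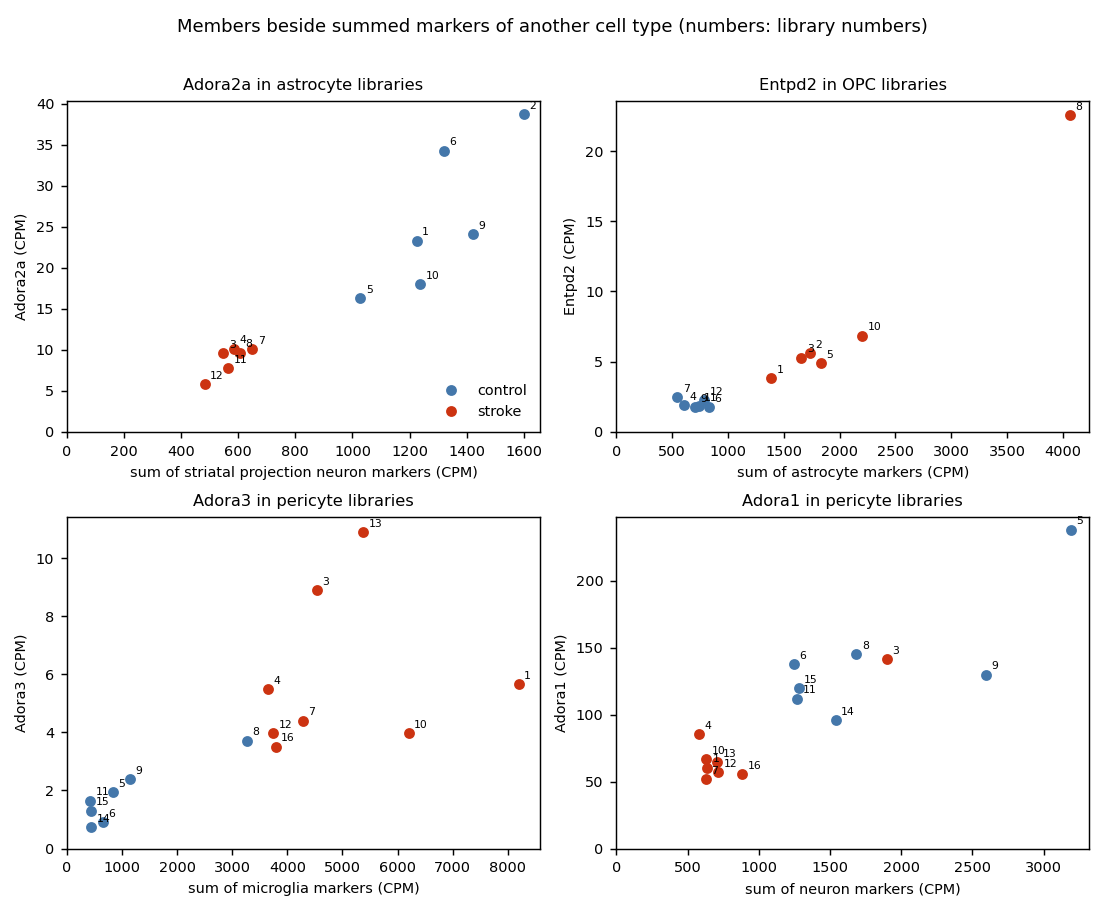
Level of 4 members (CPM) against the summed level of markers of another cell type (CPM) in the same libraries, with library numbers; points are control and stroke libraries of 1 table each. In the astrocyte table the 6 stroke libraries lie at or below 650 CPM of striatal markers and at or below 10.1 CPM of Adora2a, and in the OPC table stroke library 8 is highest on both axes.

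Microglia varied widely within each group, and edgeR called 0 of the 7 tested members (Entpd2, Adora2a and Adora2b had too few counts) in either comparison, where it called 0.00756% of 13225 genes in each. At an unadjusted p under 0.05 there were 0 members in P2 stroke against P2 control and 1, Entpd1, in P4 stroke against P2 stroke, and DESeq2 called 0 members in both. Entpd1 held 285 to 1152 CPM in P2 controls (median 778), 182 to 1172 CPM in P2 stroke libraries (median 345) and 12.3 to 283 CPM in P4 stroke libraries (median 182). The P2 groups overlapped along nearly all of their range. Of the 9 P4 libraries, 4 were below every P2 library and all 9 were below the P2 stroke median. In edgeR, P2 stroke differed from P2 control by -0.71 ± 0.44 on the log2 scale (adjusted p = 0.601). For P4 against P2 stroke the difference was -1.39 ± 0.43 (adjusted p = 0.196, and 0.0580 to 0.480 in other settings). P4 has no control, so P4 and whatever else set these libraries apart cannot be told apart. Adora3 ranged from 3.28 to 260 CPM in P2 controls, from 1.05 to 219 CPM in P2 stroke libraries (median 27.9) and from 0.920 to 139 CPM in P4 stroke libraries (median 20.2), with log2 fold changes of -0.62 ± 0.83 and -0.78 ± 0.81. The 95% interval of the first, -2.24 to 1.01, is wide enough to hold changes as large as several called in the other tables. Adora1 had a median of 0.169 CPM in P2 controls, 0.332 CPM in P2 stroke and 8.01 CPM in P4 stroke libraries, with 0 counts in 1, 3 and 2 of them. Its log2 fold changes in edgeR were 2.35 ± 1.45 in P2 stroke against P2 control (adjusted p = 0.600) and 1.09 ± 1.34 in P4 against P2 stroke (adjusted p = 0.820). Ada held 0.118 to 31.0 CPM in P2 controls (median 13.3), 0 to 37.2 CPM in P2 stroke (median 7.58) and 0 to 11.4 CPM in P4 stroke (median 1.27), with a log2 fold change of -2.0 ± 1.17 in P4 against P2 stroke (adjusted p = 0.542). Adk and Slc29a1 had counts in 23 and in 26 of the 26 libraries.

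Whether the response to stroke differed between cell types was tested in the joint fit as an interaction of cell type and condition. Over all 5 cell types it was called for 5 members, where 13.1% of 26646 genes were called: Entpd1 (adjusted p = 0.00964), Entpd2 (0.0195), Adora1 (0.0407), Adora2b (0.0244) and Adora3 (0.0436). Pairs of cell types that were called for Entpd1, Adora1 and Adora3 in this fit all had microglia as 1 partner, and no pair was called for Entpd2 or Adora2b. Pairs without microglia had few calls of any gene in it: 0.394% for EC against pericytes, 0.409% for EC against OPC, 0.0% for EC against astrocytes, 0.323% for pericytes against OPC, 0.191% for pericytes against astrocytes and 0.0638% for OPC against astrocytes. Against microglia the shares were 12.1% for EC, 15.6% for pericytes, 13.5% for OPC and 12.4% for astrocytes. Entpd1 responded more in pericytes than in microglia by 1.64 ± 0.39 (log2, adjusted p = 0.00171) and Adora3 more in OPC than in microglia by 3.40 ± 0.92 (adjusted p = 0.00747). The joint fit shares an estimate of spread for each gene over all tables, and microglia libraries varied widely. In the microglia table alone the change of Entpd1 had an SE of 0.44, and 0.00756% of genes were called. The p-values of pairs with microglia, and of the test over all 5 cell types, may therefore be too small. Without microglia in the fit, 14.3% of 25257 genes were called, and with them Entpd2 (adjusted p = 0.00147), Adora1 (0.0107) and Adora2b (2.01e-05), but not Entpd1 (0.398), Adora3 (0.123) or Adora2a (0.140).

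The differences between pairs that follow come from that fit without microglia. Adora2b had the smallest adjusted p of the members. Its log2 fold change in pericytes exceeded that in OPC by 1.84 ± 0.26 (adjusted p = 3.58e-06), where 11.1% of all genes were called for this pair. EC exceeded OPC by 1.30 ± 0.28 (adjusted p = 0.00347; 2.36% of genes called) and pericytes exceeded astrocytes by 0.84 ± 0.26 (adjusted p = 0.0404; 6.43% called). For EC against pericytes the difference of -0.54 was not called (adjusted p = 0.153; 13.3% called), and EC against astrocytes was not either (0.0475% called). The response of Entpd2 in OPC exceeded that in pericytes by 1.84 ± 0.39 (adjusted p = 0.00108), that in EC by 1.68 ± 0.41 (adjusted p = 0.0103) and that in astrocytes by 1.80 ± 0.41 (adjusted p = 0.00981; 1.43% called). Adora1 fell more in pericytes than in OPC, by 0.81 ± 0.24 (adjusted p = 0.0229), and than in astrocytes, by 1.01 ± 0.24 (adjusted p = 0.00712). The decrease of Adora2a in astrocytes was not shown to differ from its change in the other 3 tables, and the nearest to a call was pericytes against astrocytes at 1.38 ± 0.46 (adjusted p = 0.0617).

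Around these members, 57 other genes of ATP release, ATP sensing and purine turnover were listed, of which 56 were in the tables. Their counts are to be read against the shares of all genes called, which were 6.23% in EC, 28.7% in pericytes, 20.5% in OPC and 10.3% in astrocytes. In EC 50 were tested, and 4 rose and 1 fell. All 4 were P2 receptors, led by P2ry6, a UDP receptor of phagocytes (log2 1.51 ± 0.27, adjusted p = 0.0123), P2ry12, an ADP receptor of microglia (0.72 ± 0.15, adjusted p = 0.0171) and the ATP-gated channel P2rx7 (0.58 ± 0.15, adjusted p = 0.0424). The guanine deaminase gene Gda fell (-0.49 ± 0.13, adjusted p = 0.0470). In pericytes 48 were tested, and 16 rose and 7 fell. The largest increases were those of the ATP and UTP receptor P2ry2, from 0.792 ± 0.779 to 22.8 ± 7.62 CPM (log2 4.85 ± 0.68, adjusted p = 0.000167), the phosphatase gene Acpp (3.83 ± 1.07, adjusted p = 0.0143) and Slc17a9, which loads ATP into vesicles (2.23 ± 0.40, adjusted p = 0.00104). Of the 5 ATP release genes 4 rose and 1, Panx2, fell in pericytes, where 15.9% of all genes were called higher and 12.8% lower. The same 5 gave 0 calls in EC, 2 increases in OPC and 1 increase in astrocytes. The largest decreases were P2rx6 (-1.41 ± 0.40), Entpd3 (-1.26 ± 0.35) and Dpp4, which binds adenosine deaminase at the cell surface (-1.16 ± 0.32).

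In OPC 47 were tested, and 10 rose and 5 fell. Xdh, which oxidizes hypoxanthine to uric acid, led with a rise from 0.364 ± 0.507 to 4.85 ± 1.25 CPM (log2 3.74 ± 0.66, adjusted p = 0.000843), before P2ry6 (3.16 ± 0.34, adjusted p = 1.00e-05) and the nucleoside transporter Slc28a2 (3.15 ± 0.77, adjusted p = 0.00906). Gda (-1.06 ± 0.34), Enpp2 (-0.45 ± 0.07) and Nt5c3 (-0.27 ± 0.06) fell most. Astrocytes had 44 tested, of which 6 rose and 2 fell, with Slc17a9 (2.21 ± 0.65), Xdh (1.87 ± 0.36) and P2ry6 (1.85 ± 0.26) leading the increases and Gda (-0.94 ± 0.28) and Nt5c2 (-0.47 ± 0.12) the decreases. P2ry6 and P2ry12 were thus called higher, and Gda lower, in all 4 tables. P2ry6, P2ry12 and P2ry13 are also expressed by microglia, whose markers rose in the same libraries, and the part of these cells was not tested. In microglia 31 were tested and edgeR called 0 in both comparisons. The median log2 fold change of the listed genes was 0.05 in EC, 0.14 in pericytes, 0.06 in OPC and 0.09 in astrocytes, against the medians over all genes given above.

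As a description, the genes whose mean log2(CPM + 1) over the 11 groups ran most alike were sought among 17404 genes, by Pearson correlation. The groups share libraries and tables, and much of the likeness lies in the gap between microglia and the rest. Entpd2 ran with Scara3, with the astrocyte gene Aldh1l1 and with Ephx2 (r = 0.991 to 0.995), and Adk with Ndrg2, Acadl and Pyurf (0.988 to 0.993). Adora3 ran with Rhoh, Igsf6 and Gm5086 (0.992 to 0.995), and Entpd1 with Myo18b, Gm16675 and C79130 (0.979 to 0.980). For Adora2b the nearest were Cyp7b1, Tmem198b and Gfpt2 (0.988 to 0.991) and for Adora2a they were Chrd, Rasgrp2 and Dock5 (0.985 to 0.989). Adora1 ran with Fitm2, Mlst8 and Thnsl1 (0.994 to 0.996), Nt5e with Pus7l, Cemip2 and Adam12 (0.982 to 0.994), and Slc29a1 with Rps2-ps10, Lrrc32 and Cp (0.963 to 0.971).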

How the data were processed

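The authors deposited raw counts per Ensembl gene, 1 table for each of 5 cell types. The kits named in the labels' protocols (NucleoSpin RNA XS, SMART-Seq v4) mark neither strand nor molecule, so reads of overlapping genes cannot be separated and intervals cover counting error and library spread only. Per the submitters' processing notes, bcl2fastq 2.20, STAR, HTSeq and GRCm38 were used, whereas most column names begin with the name of another aligner, and the sources used here give no order or settings. The 37 mitochondrial genes had 0 counts in every library.

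The deposited counts were tested in R 4.3.3 with edgeR 4.0.16 (limma 3.58.1): TMM scaling, filterByExpr, the quasi-likelihood test and Benjamini-Hochberg adjustment, called under 0.05. Each table had its own fit, with all 26 microglia libraries together. A joint fit of 68 libraries, without P4, gave control levels and interactions. Stroke and control were grouped by the labels. Alternatives were DESeq2 1.42.0, RLE factors, library totals alone, no filter, each library left out, EC library numbers up to 6 or above 6, summed pericyte controls 11 and 15 (the closest pericyte pair), and no microglia. Code was tested on simulated counts with planted changes. In EC, pericytes, OPC and astrocytes 36% to 86% of 2-fold and 82% to 99% of 4-fold changes were called. In microglia 0% and 2% were called, and in the joint fit 0% and 7% for the response of pericytes against OPC. A lack of calls in those fits therefore says little. The genes named are all 10 members, the 3 called companions with the largest change in each direction and the 3 most alike by correlation, which for Ada are not reported here. Genes were matched by symbol, and 1 of the 57 companions, Pnp, had no match. Members and lists were chosen with earlier results of these data known.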

Additional observations from a re-analysis of the deposited data

Results flagged for a closer look

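In 23 of 105 groups of a gene, the highest or lowest library stood apart from the rest of its group by Dixon's criterion. The usual rate of about 1 in 20 holds for normally distributed values. Some of these groups held almost no counts, so the 23 cannot be read against that rate. Library 8 of OPC stroke held 22.6 CPM of Entpd2, with the next at 6.84 CPM. Nt5e had single high libraries in pericyte control 6 (34.8 CPM, next 11.1), astrocyte stroke 11 (6.10, next 3.00), microglia P2 control 13 (51.5, next 8.74) and microglia P2 stroke 17 (12.6, next 1.55).

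Adora1 was high in pericyte control 5 (238 CPM, next 145) and pericyte stroke 3 (142, next 85.6), and low in OPC stroke 8 (189, next 253) and astrocyte stroke 12 (161, next 244). Adora2b was high in EC control 11 (13.8 CPM, next 9.75). Its few microglia counts put P2 control 12 at 0.0944 CPM, P2 stroke 17 at 0.467 CPM and P4 stroke 19 at 0.307 CPM, and Adora2a had a count in microglia only in P4 stroke 22 (0.178 CPM).

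Adora3 was high in OPC control 12 (0.738 CPM, next 0.122), astrocyte stroke 12 (9.35, next 3.29), microglia P2 stroke 9 (219, next 93.2) and P4 stroke 23 (139, next 41.6). Adk was high in pericyte stroke 1 (277 CPM, next 190.03), OPC stroke 1 (143, next 132) and microglia P2 control 3 (46.6, next 20.9). Slc29a1 was high in pericyte control 6 (281 CPM, next 138) and P4 stroke 19 (154, next 43.4). OPC stroke 8, astrocyte stroke 12, pericyte control 6, microglia P2 stroke 17 and microglia P4 stroke 19 were each set apart for more than 1 gene.

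The response to stroke differed between the 5 cell types in the joint fit (edgeR's test of the interaction) for Entpd1 (adjusted p = 0.00964), Entpd2 (0.0195), Adora1 (0.0407), Adora2b (0.0244) and Adora3 (0.0436). The limit of the shared spread given above holds for these p-values too.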

How the results depend on the processing

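The calls of Adora1, Adora2b and Adora3 in pericytes, of Entpd1, Entpd2, Adora2b, Adora3 and Slc29a1 in OPC, and of Adora2a in astrocytes kept their direction and stayed called in every alternative run for them. For the rest, the cause was not tested. EC calls over all genes numbered 1309, against 2834 with DESeq2, 862 without the filter and 0 within library numbers up to 6 or above 6 (1748 and 4156 at an unadjusted p under 0.05), and 138 to 1493 with 1 library left out (138 without control 7, 195 without control 9, 625 without stroke 8, 748 without stroke 10). EC members called were 1, against 2 with DESeq2, 0 in both number classes and 0 to 1 with 1 library left out. Astrocyte members were 1, against 2 with DESeq2. Members called with 1 library left out were 3 to 6 in pericytes and 5 to 6 in OPC. In microglia, P2 stroke against control gave 1 gene, 328 with DESeq2, 2 without the filter, 0 with P4 left out and 0 to 15 with 1 library left out (15 without control 12). P4 against P2 stroke gave 1, 220 with DESeq2, 52 without the filter and 1 to 3. Of the pairs of control levels among the other 4 cell types 25 were called, and 48 without microglia. Interactions were called for 5 members, 3 with library totals alone and 3 without microglia. Signs turned in EC within numbers up to 6 for Entpd2 (-0.016) and Adk (-0.20), above 6 for Adora2a (0.21), and with library totals alone for Slc29a1 (0.025) and in pericytes for Ada (-0.13). Library totals also turned control levels of Adora1 (0.11) and Adora2a (0.10) in EC minus astrocytes and of Entpd1 (0.0092) and Adk (0.56) in pericytes minus OPC, and the interactions of Nt5e in EC minus pericytes (0.039), Entpd1 (-0.078) and Ada (-0.049) in pericytes minus OPC and Slc29a1 in OPC minus microglia (0.14). With 1 library left out, ranges crossed 0 in EC for Adora2a (-0.84 to 0.0010), Adk (-0.042 to 0.079) and Slc29a1 (-0.11 to 0.0075), for Ada in pericytes (-0.035 to 0.35), OPC (-0.55 to 0.040) and microglia P2 (-0.62 to 0.043), in astrocytes for Adk (-0.092 to 0.034) and Slc29a1 (-0.15 to 0.0070), and for Slc29a1 in P4 against P2 (-0.39 to 0.86). None of these was called. No paired analysis was possible because control and stroke libraries of a cell type share no library number. Microglia libraries were shallower than all others, and the part of depth in their few calls was not tested.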
